A study of Mus musculus with 6 samples.

Results

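V(D)J recombination builds the genes of T cell receptors by cutting and rejoining V, D and J segments, and 10 genes of this reaction are described here: Rag1, Rag2, Dntt, Xrcc5, Xrcc6, Prkdc, Dclre1c, Lig4, Xrcc4 and Nhej1. They were chosen by symbol from knowledge of the reaction, out of 22298 genes listed in the deposited tables. Earlier results of these data were known when they were chosen. The RNA came from flow-sorted thymocytes of C57BL/6 mice that the labels call double-negative, meaning T cell precursors with neither CD4 nor CD8 on the surface. Toxf/fPdcd1Cre mice carry loxP-flanked alleles of Tox, a nuclear factor of T cell development, and a Cre recombinase whose name points to Pdcd1, which encodes the receptor PD-1. Toxf/f mice carry the same flanked alleles, and their labels name no Cre. The flanked alleles are thus common to both genotypes, and the labels do not give the construct of the Cre or the cells in which it was active.

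Each genotype had 3 samples, with mice aged 3 weeks for replicates 1 and 2 and 4 weeks for replicate 3. Since the deposited values of Toxf/f replicate 1 equal those of replicate 2 throughout, the pair entered as 1 shared library, so that 3 Toxf/fPdcd1Cre libraries stood against 2 Toxf/f libraries. The labels tie no sample to an individual mouse, so the technical part of the spread behind the p-values is not known. Within each genotype that spread also takes in the difference in age. Within Toxf/fPdcd1Cre the spread also takes in a library that stood apart in Ddx3y, a gene of the Y chromosome. Library totals lay between 14245492 and 16199195 estimated counts. The sample titles name the double-negative population as a whole while the protocol names its DN2 stage. CPM, used throughout for levels of 1 gene across libraries, is the estimated count scaled to a common library size. Cd4 and Cd8a, which double-negative cells lack on their surface, were high in every library: Cd8a averaged 1826 ± 195 CPM in Toxf/fPdcd1Cre and 1623 ± 322 CPM in Toxf/f (SD, n = 3 and 2), and Cd4 averaged 859 ± 133 CPM in Toxf/fPdcd1Cre and 877 ± 45.5 CPM in Toxf/f. The libraries are therefore called by their label only, and the share of cells at each stage is not known.

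In the reaction, the RAG1 and RAG2 proteins together cut DNA beside paired receptor segments and leave hairpin-sealed coding ends. The Ku heterodimer holds the broken ends, DNA-PKcs and Artemis open the hairpins, terminal transferase adds bases without a template, and the XRCC4, DNA ligase IV and XLF proteins close the joint. Rag1, Rag2 and Dntt are expressed almost only in developing lymphocytes, whereas the end-joining genes serve break repair in most cells.

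The start regions of the members differ in base composition, and 6 are shown to let the lymphocyte-restricted genes be set beside ubiquitous ones. Each is the 300-base window from 250 bases before to 50 bases after a transcript start in RefSeq on GRCm38.p6, printed 5′ to 3′ on the gene's strand, with CpG dinucleotides in capitals. The windows are chr2:101649483-101649782 on the minus strand for Rag1, chr2:101624462-101624761 on the plus strand for Rag2, chr19:41029025-41029324 on the plus strand for Dntt, chr8:9977631-9977930 on the minus strand for Lig4, chr13:90089559-90089858 on the minus strand for Xrcc4 and chr15:82016119-82016418 on the plus strand for Xrcc6.
Rag1: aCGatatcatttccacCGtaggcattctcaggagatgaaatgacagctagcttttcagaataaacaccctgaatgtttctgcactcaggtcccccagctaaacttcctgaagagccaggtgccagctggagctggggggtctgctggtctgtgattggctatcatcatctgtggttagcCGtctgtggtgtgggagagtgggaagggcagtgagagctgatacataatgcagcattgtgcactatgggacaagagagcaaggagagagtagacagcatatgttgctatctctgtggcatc
Rag2: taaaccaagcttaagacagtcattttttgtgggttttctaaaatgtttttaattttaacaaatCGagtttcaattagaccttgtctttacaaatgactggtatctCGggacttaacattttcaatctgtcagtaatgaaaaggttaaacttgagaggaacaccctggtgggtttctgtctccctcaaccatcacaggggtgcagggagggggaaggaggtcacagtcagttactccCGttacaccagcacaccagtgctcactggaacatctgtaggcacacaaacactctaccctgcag
Dntt: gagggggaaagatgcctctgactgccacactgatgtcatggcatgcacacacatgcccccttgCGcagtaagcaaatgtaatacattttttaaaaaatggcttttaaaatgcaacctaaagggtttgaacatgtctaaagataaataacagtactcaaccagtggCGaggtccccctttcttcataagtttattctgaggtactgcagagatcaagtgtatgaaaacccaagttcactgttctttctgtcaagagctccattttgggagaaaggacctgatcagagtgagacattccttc
Lig4: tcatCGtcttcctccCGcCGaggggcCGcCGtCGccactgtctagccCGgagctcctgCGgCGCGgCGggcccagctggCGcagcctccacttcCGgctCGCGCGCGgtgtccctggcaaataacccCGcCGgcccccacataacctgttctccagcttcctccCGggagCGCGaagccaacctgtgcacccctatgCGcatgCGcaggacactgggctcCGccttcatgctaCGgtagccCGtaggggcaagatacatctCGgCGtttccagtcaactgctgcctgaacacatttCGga
Xrcc4: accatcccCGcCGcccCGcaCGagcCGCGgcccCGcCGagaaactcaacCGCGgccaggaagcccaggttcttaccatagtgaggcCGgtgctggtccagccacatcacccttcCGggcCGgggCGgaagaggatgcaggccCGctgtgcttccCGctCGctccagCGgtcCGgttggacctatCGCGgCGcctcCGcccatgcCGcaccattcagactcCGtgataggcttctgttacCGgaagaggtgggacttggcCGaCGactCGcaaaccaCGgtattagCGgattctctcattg
Xrcc6: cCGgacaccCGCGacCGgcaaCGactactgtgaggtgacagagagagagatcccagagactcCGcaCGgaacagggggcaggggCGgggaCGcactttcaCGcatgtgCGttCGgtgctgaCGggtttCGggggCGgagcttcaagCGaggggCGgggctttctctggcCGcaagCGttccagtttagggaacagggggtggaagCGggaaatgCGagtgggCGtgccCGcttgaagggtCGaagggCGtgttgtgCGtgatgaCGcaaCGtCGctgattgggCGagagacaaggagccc
The windows of the RAG pair and of Dntt were poor in CpG, with 3 in Rag1, 3 in Rag2 and 2 in Dntt. The Lig4 window shown held 30, that of Xrcc4 31 and that of Xrcc6 30. Over 32841 such windows of mouse genes the median was 7, and 31.4% of them held at most 3. Xrcc5 with 9, Nhej1 with 10 and Dclre1c with 12 lay between these extremes, and a further Lig4 start had 29. In all, 9 of the 10 members matched a window, and Prkdc did not. The Xrcc6 start used lies inside the gene's GENCODE span. The E-box letters CANNTG, counted on both strands, occurred 4 times in the Rag1 window, 2 times in that of Rag2 and 3 times in that of Dntt, and at least once in 72.3% of all windows. They also occurred 2 times in the windows of Xrcc5 and Dclre1c and in either window of Lig4. The windows of Xrcc6 and Nhej1 held 1 match and that of Xrcc4 held 0. The RUNX core letters TGTGGT occurred 2 times in the Rag1 window and in no other member's, against 16.8% of all windows with a match. These letter matches describe the windows and do not mark sites of binding.

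Tox, the targeted gene, was checked first. Its estimated counts were 281, 257 and 201 in Toxf/fPdcd1Cre replicates 1, 2 and 3, against 1896 in the shared Toxf/f library and 1746 in Toxf/f replicate 3. Tox fell by 2.78 ± 0.161 on the log2 scale (SE; edgeR's quasi-likelihood test, adjusted p = 6.72e-06), and the exact two-sided permutation p was 0.1, the smallest that the 10 possible splits of 5 libraries allow.

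None of the 10 recombination genes passed the same test. All 10 had enough counts to be tested, yet 0 reached an adjusted p under 0.05 with edgeR, where 1.64% of the 14121 tested genes did. DESeq2, limma-voom and limma on FPKM values also called 0. At an unadjusted p under 0.05, edgeR picked 1 member, Xrcc6, which was higher in Toxf/fPdcd1Cre, against 3.08% of all tested genes that were higher at that level. Fitted fold changes were above 0 for 8 members and below 0 for 2, with a median log2 value of 0.11, beside a median of 0.03 and 54.8% above 0 over all tested genes. Without Toxf/fPdcd1Cre replicate 3 the members' median was -0.01. The 95% intervals ran from a log2 value of -0.73, the lower bound for Nhej1, to 0.71, the upper bound for Xrcc6, or from 0.605-fold to 1.64-fold. No member's interval therefore reached a 2-fold difference in this fit, while differences inside these bounds could not be told from none. The genome-wide calls had absolute log2 fold changes of at least 0.597. Fewer cells of a type and less RNA per cell cannot be told apart in such bulk libraries, in either direction.

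**Figure D1:**
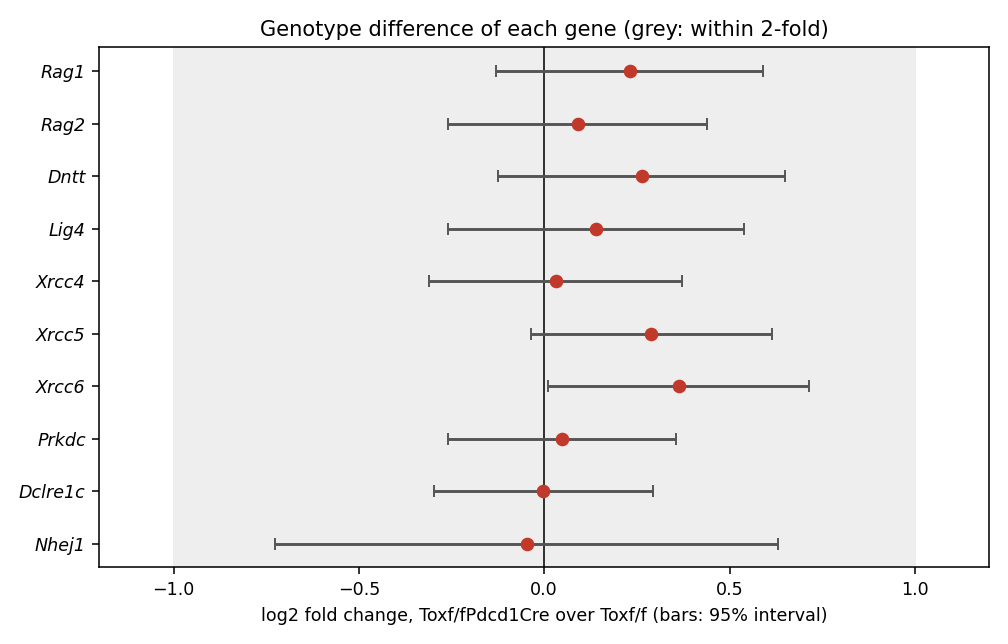
Log2 fold change of each member, Toxf/fPdcd1Cre minus Toxf/f, from edgeR, with its 95% interval; the shaded band covers changes under 2-fold. The interval of Xrcc6, from 0.01 to 0.71, is the one that leaves out 0, and that of Nhej1, from -0.73 to 0.63, is the widest.

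Levels differed far more between the genes than between the genotypes. FPKM values, which also allow for gene length, were highest for Dntt and Rag1, whose ranks by mean FPKM among all listed genes were 86 and 103. Xrcc6 ranked 212 and Rag2 507, while the remaining end-joining genes ran from rank 2778 for Lig4 to rank 9403 for Nhej1. The order by mean FPKM was Dntt, Rag1, Xrcc6, Rag2, Lig4, Xrcc5, Xrcc4, Dclre1c, Prkdc and Nhej1. Among neighbours in this order, the library ranges overlapped for Dntt and Rag1, with Dntt higher in 4 of 5 libraries, and for Lig4 and Xrcc5, with Lig4 higher in 3 of 5. All other neighbours were apart in all 5 libraries. The 10 genes together took 0.704%, 0.840% and 0.822% of all counts in Toxf/fPdcd1Cre replicates 1, 2 and 3, against 0.706% in the shared Toxf/f library and 0.692% in Toxf/f replicate 3. Their combined share was thus higher in Toxf/fPdcd1Cre replicates 2 and 3 than in the rest, and replicate 1 lay between the 2 Toxf/f libraries.

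**Figure D2:**
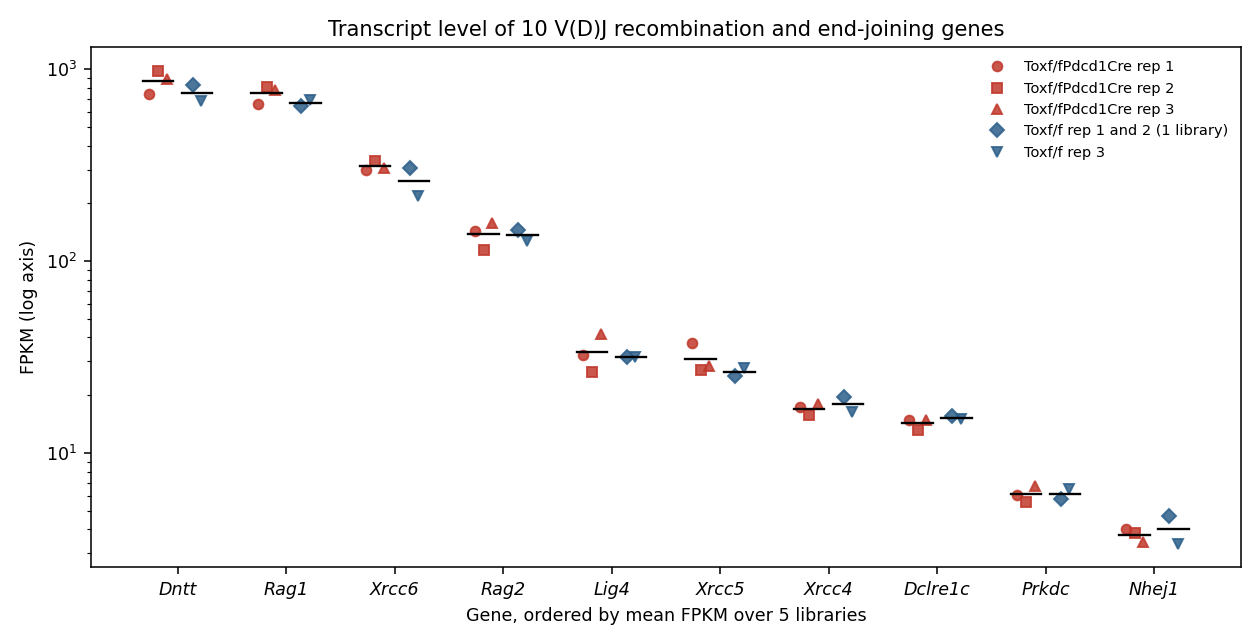
FPKM of each member in every library on a log axis, Toxf/fPdcd1Cre left of Toxf/f, with lines at the group means. Dntt and Rag1 lie at 643.91 FPKM or more and Nhej1 at 4.68 FPKM or less in all 5 libraries, and within a gene the points of the genotypes lie close together.

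Rag1 and Rag2 encode the recombinase. Rag1 (ENSMUSG00000061311) lies on chromosome 2 from 101638282 to 101649501 on the minus strand of GRCm38, and Rag2 (ENSMUSG00000032864) from 101624718 to 101632529 on the plus strand, so that their 3′ ends face each other. Rag1 had 62020, 85997 and 78666 estimated counts in Toxf/fPdcd1Cre replicates 1, 2 and 3, or 4237, 5489 and 5411 CPM, against 4200 CPM in the shared Toxf/f library and 4403 CPM in Toxf/f replicate 3. Toxf/fPdcd1Cre replicates 2 and 3 were the highest, and replicate 1 lay between the Toxf/f libraries. Rag1 averaged 5046 ± 701 CPM in Toxf/fPdcd1Cre and 4301 ± 143 CPM in Toxf/f (SD, n = 3 and 2), a log2 fold change of 0.23 ± 0.164 (SE; edgeR, adjusted p = 0.738).

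Rag2 had another order of libraries than Rag1. It had 305.9, 253.5 and 348.4 CPM in Toxf/fPdcd1Cre replicates 1, 2 and 3, against 306.9 CPM in the shared Toxf/f library and 261.6 CPM in Toxf/f replicate 3. Toxf/fPdcd1Cre replicate 3 was the highest and replicate 2 the lowest of all 5, so the Toxf/f values fell inside the Toxf/fPdcd1Cre range. The log2 fold change was 0.09 ± 0.159 (SE; edgeR, adjusted p = 0.930), with a 95% interval from -0.26 to 0.44. Per length, Rag1 exceeded Rag2 by ratios of 4.57, 7.05 and 4.93 in Toxf/fPdcd1Cre replicates 1, 2 and 3, against 4.41 in the shared Toxf/f library and 5.40 in Toxf/f replicate 3. The high ratio in Toxf/fPdcd1Cre replicate 2 goes with its high Rag1 and low Rag2, and the genotypes overlapped.

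Both genes lie inside the annotated span of B230118H07Rik, a gene listed on the minus strand. It runs on the same strand as Rag1, so strand would not separate that pair, and opposite to Rag2. Use of strand in the counting is not given, and only spans were compared, not exons. How far reads of these genes were counted for each other is therefore not known. B230118H07Rik had 18.7, 12.1 and 10.5 CPM in Toxf/fPdcd1Cre replicates 1, 2 and 3, against 12.9 CPM in the shared Toxf/f library and 9.88 CPM in Toxf/f replicate 3. Its log2 fold change was 0.27 (edgeR, adjusted p = 0.838). Of 4 tested genes at the RAG locus, B230118H07Rik included, 0 passed. Traf6, a ubiquitin ligase of receptor signalling, had a log2 fold change of 0.04 and Commd9 one of 0.27, with adjusted p = 0.968 for Traf6 and 0.709 for Commd9 (edgeR). Prr5l, the one of the 4 below 0, had 2.87, 3.83 and 2.96 CPM in Toxf/fPdcd1Cre replicates 1, 2 and 3, against 5.25 CPM in the shared Toxf/f library and 7.29 CPM in Toxf/f replicate 3. Its genotypes did not overlap, and its log2 fold change was -0.96 ± 0.305 (SE; edgeR, unadjusted p = 0.00881, adjusted p = 0.206).

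Dntt (ENSMUSG00000025014, chromosome 19, 41029275 to 41059525, plus strand) encodes terminal transferase, which adds bases at the coding ends and so widens the diversity of junctions. It had 1415, 1984 and 1817 CPM in Toxf/fPdcd1Cre replicates 1, 2 and 3, against 1605 CPM in the shared Toxf/f library and 1293 CPM in Toxf/f replicate 3. Toxf/fPdcd1Cre replicates 2 and 3 were again the highest, and replicate 1 lay below the shared Toxf/f library. Dntt averaged 1739 ± 292 CPM in Toxf/fPdcd1Cre and 1449 ± 221 CPM in Toxf/f (SD, n = 3 and 2). Its log2 fold change was 0.26 ± 0.177 (SE; edgeR, adjusted p = 0.714) and depended on the Toxf/f library used: it was 0.43 without the shared library and 0.12 without replicate 3. Per length, the Dntt to Rag1 ratio was 1.12, 1.22 and 1.13 in Toxf/fPdcd1Cre replicates 1, 2 and 3, against 1.29 in the shared Toxf/f library and 0.989 in Toxf/f replicate 3. The Toxf/f libraries held both the highest and the lowest ratio.

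Xrcc6 and Xrcc5 encode the Ku subunits, which thread onto a broken end and recruit the rest of the joining machinery. Xrcc6 (ENSMUSG00000022471, chromosome 15, 81987835 to 82040085, plus strand) had 531.3, 642.4 and 606.2 CPM in Toxf/fPdcd1Cre replicates 1, 2 and 3, against 525.2 CPM in the shared Toxf/f library and 397.4 CPM in Toxf/f replicate 3. All Toxf/fPdcd1Cre libraries lay above both Toxf/f libraries, replicate 1 by a narrow margin over the shared library, and Toxf/f replicate 3 was the lowest. Xrcc6 averaged 593 ± 56.7 CPM in Toxf/fPdcd1Cre and 461 ± 90.4 CPM in Toxf/f (SD, n = 3 and 2), and the log2 fold change was 0.36 ± 0.161 (SE; edgeR, unadjusted p = 0.0440, adjusted p = 0.461). The size turned on the Toxf/f libraries: without the shared library it was 0.58 with adjusted p = 0.429, and without Toxf/f replicate 3 it was 0.18 with adjusted p = 1.00 (edgeR). In FPKM the genotypes overlapped, with 299.28, 332.44 and 304.93 in Toxf/fPdcd1Cre replicates 1, 2 and 3, against 304.04 in the shared Toxf/f library and 217.35 in Toxf/f replicate 3. The gene length implied by its count and FPKM differed between libraries, from 1750 to 1902 bases, and its span overlaps Desi1 on the other strand (log2 fold change 0.23, edgeR adjusted p = 0.795).

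Xrcc5 (ENSMUSG00000026187, chromosome 1, 72307421 to 72394952, plus strand) had 93.3, 71.7 and 75.5 CPM in Toxf/fPdcd1Cre replicates 1, 2 and 3, against 63.3 CPM in the shared Toxf/f library and 68.1 CPM in Toxf/f replicate 3. Here too all Toxf/fPdcd1Cre libraries lay above both Toxf/f libraries, and replicate 1 stood highest. The log2 fold change was 0.29 ± 0.149 (SE; edgeR, adjusted p = 0.551), and without Toxf/fPdcd1Cre replicate 1 it was 0.13 with adjusted p = 0.761. Thus 2 of 10 members, both Ku subunits, had every Toxf/fPdcd1Cre library above every Toxf/f library in CPM, while 12.6% of all tested genes had. The Xrcc6 to Xrcc5 ratio of FPKM was 7.96, 12.2 and 10.8 in Toxf/fPdcd1Cre replicates 1, 2 and 3, against 12.1 in the shared Toxf/f library and 7.87 in Toxf/f replicate 3. The low ratios stand beside a high Xrcc5 in Toxf/fPdcd1Cre replicate 1 and a low Xrcc6 in Toxf/f replicate 3.

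Prkdc and Dclre1c encode DNA-PKcs, the kinase that Ku brings to the break, and Artemis, the nuclease that opens hairpins once DNA-PKcs has joined it. Prkdc (ENSMUSG00000022672, chromosome 16, 15637866 to 15842235, plus strand) had 74.6, 72.4 and 88.9 CPM in Toxf/fPdcd1Cre replicates 1, 2 and 3, against 72.2 CPM in the shared Toxf/f library and 79.8 CPM in Toxf/f replicate 3. The highest values of each genotype were those of replicate 3, and the groups overlapped. Its log2 fold change was 0.05 ± 0.140 (SE; edgeR, adjusted p = 0.963). Dclre1c (ENSMUSG00000026648, chromosome 2, 3424131 to 3464130, plus strand) had the steadiest CPM of the 10 genes, at 48.0, 42.1 and 46.6 in Toxf/fPdcd1Cre replicates 1, 2 and 3, against 46.8 in the shared Toxf/f library and 44.4 in Toxf/f replicate 3. The Toxf/f values fell inside the Toxf/fPdcd1Cre range, and the log2 fold change was -0.00 ± 0.135 (SE; edgeR, adjusted p = 0.998, 95% interval from -0.30 to 0.29).

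In FPKM, Dclre1c was the 1 member whose genotypes did not overlap. It had 14.79, 13.24 and 14.84 FPKM in Toxf/fPdcd1Cre replicates 1, 2 and 3, against 15.55 FPKM in the shared Toxf/f library and 15.02 FPKM in Toxf/f replicate 3. All Toxf/fPdcd1Cre libraries were below both Toxf/f libraries on this scale, as they were for 15.9% of tested genes, and limma on log2(FPKM + 1) gave a difference of -0.09 with adjusted p = 0.951. The length implied by its count and FPKM ran from 3003 to 3332 bases between libraries, and the 2 scales order the libraries differently. Its 3′ part overlaps Suv39h2, a histone methyltransferase gene on the other strand, which had a log2 fold change of -0.08 (edgeR, adjusted p = 0.947). The Dclre1c to Prkdc ratio of FPKM lay between 2.21 and 2.69 over the 5 libraries, and the genotypes overlapped.

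The closing step of the reaction falls to DNA ligase IV and its partners XRCC4 and XLF. Lig4 (ENSMUSG00000049717, chromosome 8, 9969049 to 9977686, minus strand), the ligase itself, had 114.4, 100.9 and 162.3 CPM in Toxf/fPdcd1Cre replicates 1, 2 and 3, against 114.2 CPM in the shared Toxf/f library and 114.3 CPM in Toxf/f replicate 3. Toxf/fPdcd1Cre replicate 3 stood above the other 4 libraries, and replicate 2 was the lowest. The log2 fold change was 0.14 ± 0.183 (SE; edgeR, adjusted p = 0.901), and it was -0.09 without Toxf/fPdcd1Cre replicate 3. Xrcc4 (ENSMUSG00000021615, chromosome 13, 89774027 to 90089608, minus strand), the scaffold that stabilises the ligase, had 26.1, 24.1 and 28.8 CPM in Toxf/fPdcd1Cre replicates 1, 2 and 3, against 27.9 CPM in the shared Toxf/f library and 23.7 CPM in Toxf/f replicate 3. The ranges overlapped almost wholly, and its log2 fold change was 0.03 ± 0.156 (SE; edgeR, adjusted p = 0.979). Its 5′ end overlaps Tmem167 on the other strand (log2 fold change 0.10, edgeR adjusted p = 0.906).

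Nhej1 (ENSMUSG00000026162, chromosome 1, 74967139 to 75125200, minus strand) encodes XLF, which bridges ends together with XRCC4, and it was the scarcest member. It had 60, 65 and 55 estimated counts in Toxf/fPdcd1Cre replicates 1, 2 and 3, against 76 in the shared Toxf/f library and 57 in Toxf/f replicate 3. The Toxf/f libraries held the highest level in CPM, 4.87, and the lowest, 3.43, with the Toxf/fPdcd1Cre values of 4.10, 4.15 and 3.78 between them. Its log2 fold change was -0.05 ± 0.310 (SE; edgeR, adjusted p = 0.985). The low count goes with the widest interval of the 10 genes, and a log2 difference such as the 0.36 of Xrcc6 lies inside it. Per length, Lig4 exceeded Xrcc4 by ratios between 1.61 and 2.32 and Xrcc4 exceeded Nhej1 by ratios between 4.13 and 5.21, with the genotypes overlapping in both.

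Deviations of each gene from its own mean log2 CPM show which libraries carried the differences. Toxf/fPdcd1Cre replicate 2 had Rag1, Dntt and Xrcc6 above their means by 0.22, 0.31 and 0.27, while Rag2 at -0.21 and Lig4 at -0.24 were below theirs. Toxf/fPdcd1Cre replicate 3 had 9 of 10 members above their means, Lig4 the most at 0.44. In Toxf/f replicate 3, 9 of 10 members were below their means, Xrcc6 the most at -0.42, and Prkdc was the one above. Each of these counts rests on 1 library. The matching shares of all tested genes were not taken, so the counts are not read as a trait of the members. Toxf/fPdcd1Cre replicate 1 stood apart from the other libraries in Ddx3y, a gene of the Y chromosome. That library had a count of 1 for Ddx3y, against counts from 843 to 1354 in the other 4. Without it, the log2 fold changes were 0.30 for Rag1, 0.35 for Dntt and 0.40 for Xrcc6, with edgeR adjusted p = 0.301, 0.260 and 0.221 in that order. No member was called without that library. The part of sex in the members' values was not tested.

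**Figure D3:**
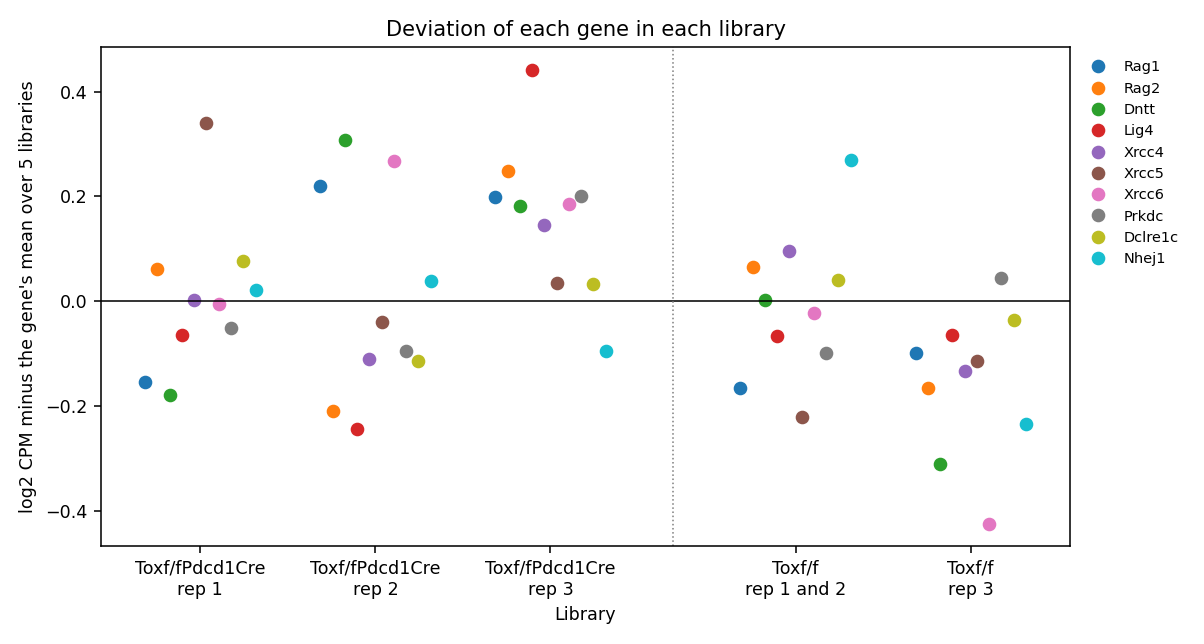
Deviation of log2 CPM from each member's mean over the 5 libraries, by library, Toxf/fPdcd1Cre libraries left of Toxf/f libraries. Most members lie above 0 in Toxf/fPdcd1Cre replicate 3 and below 0 in Toxf/f replicate 3, the 2 libraries from mice 4 weeks old. The matching shares of all tested genes were not taken.

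Within each age the differences were not alike; they are given as values and were not tested, with 2 Toxf/fPdcd1Cre libraries against 1 Toxf/f library at 3 weeks and 1 against 1 at 4 weeks. At 4 weeks all 10 members were higher in the Toxf/fPdcd1Cre library, by log2 differences from 0.07 for Dclre1c to 0.61 for Xrcc6. This count rests on 1 library against 1. The share of all tested genes that were higher at that age was not taken, so the count is not read as a trait of the members. At 3 weeks 5 members were above 0, Rag1 at 0.20, Dntt at 0.06, Xrcc5 at 0.37, Xrcc6 at 0.15 and Prkdc at 0.02. The other 5 were below 0 at that age, from -0.06 for Dclre1c to -0.24 for Nhej1. Xrcc5 had its larger difference at 3 weeks, whereas the other 4 members above 0 at both ages, Rag1, Dntt, Xrcc6 and Prkdc, had theirs at 4 weeks.

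Further genes of joining and repair also gave no call. Of 15 tested cofactors of end joining and of the RAG proteins, 0 passed, with a median log2 fold change of 0.08. Hmgb1, a DNA-bending protein that helps RAG bind, had 2039, 1730 and 2054 CPM in Toxf/fPdcd1Cre replicates 1, 2 and 3, against 1613 CPM in the shared Toxf/f library and 1439 CPM in Toxf/f replicate 3, with edgeR adjusted p = 0.452. Its values did not overlap between genotypes, and its relative Hmgb2 had a log2 fold change of 0.25 with adjusted p = 0.714. Of 17 genes of break sensing and end protection, 0 passed; the median log2 fold change was 0.14, and all 17 lay above 0. H2ax, the histone variant marked at breaks, had 0.30 and Kmt2a 0.06 on the log2 scale (edgeR, adjusted p = 0.510 and 0.975 in that order). Without the shared Toxf/f library Kmt2a had -0.29 and H2ax 0.48, and without Toxf/f replicate 3 Kmt2a had 0.51 and H2ax 0.14. The medians of the 2 lists lay between 0.04 and 0.22 for the cofactors and between 0.08 and 0.18 for break sensing when a library was left out.

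Genes of other break repair routes gave higher medians than the members, again without a call. Of 8 alternative end-joining genes 0 passed, with a median log2 fold change of 0.28. Lig1, the replicative ligase that can also join ends, had 185, 165 and 203 CPM in Toxf/fPdcd1Cre replicates 1, 2 and 3, against 141 CPM in the shared Toxf/f library and 124 CPM in Toxf/f replicate 3. The genotypes did not overlap, and the log2 fold change was 0.48 ± 0.140 (SE; edgeR, adjusted p = 0.159). Parp1, a sensor of DNA breaks, had 0.31 (adjusted p = 0.459). Of 14 homologous recombination genes 0 passed, with a median of 0.27; Brca1 had 0.38 and Blm 0.24 (adjusted p = 0.336 and 0.798 in that order). Beside these, 0 of 18 cell cycle genes passed, with a median of 0.26 and 17 above 0, Mki67 at 0.43 and Top2a at 0.37 among them (adjusted p = 0.510 and 0.546 in that order). The summed CPM of the cell cycle list was 6896, 6075 and 7941 in Toxf/fPdcd1Cre replicates 1, 2 and 3, against 6028 in the shared Toxf/f library and 5386 in Toxf/f replicate 3. It was thus higher in every Toxf/fPdcd1Cre library, but replicate 2 lay above the shared library only by a narrow margin. Mki67 alone gave 1168 CPM of the sum in Toxf/fPdcd1Cre replicate 2 and 1083 CPM in the shared library. The part of the cell cycle in the repair genes' values was not tested. The sizes of these medians turned on single libraries: that of the cell cycle list was 0.13 without Toxf/f replicate 3 and 0.40 without the shared library, and that of homologous recombination was 0.14 without Toxf/fPdcd1Cre replicate 1 and 0.17 without Toxf/f replicate 3.

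A list of Trp53, which encodes p53, and of genes that respond to p53, which unrepaired breaks activate, was read too. It gave 0 calls among 11 tested, with a median log2 fold change of -0.15 and 10 below 0. Over all tested genes 54.8% were above 0. Among the 10, Trp53 had -0.02 and Mdm2 -0.04 (edgeR, adjusted p = 0.980 and 0.968 in that order). Ccng1 had -0.14 and Trp53inp1, the one above 0, had 0.19 (edgeR, adjusted p = 0.854 and 0.795 in that order). The largest differences were those of scarcer genes, Pmaip1 at -1.09 and Cdkn1a at -0.58 (adjusted p = 0.0999 and 0.344 in that order). Pmaip1, which encodes the death factor NOXA, had 4.97 ± 1.49 CPM in Toxf/fPdcd1Cre and 10.6 ± 0.684 CPM in Toxf/f (SD, n = 3 and 2). Without Toxf/fPdcd1Cre replicate 1, 1 gene of this list was called lower.

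Of 21 tested regulators of Rag transcription, 1 passed. Lef1, a factor of the TCF family, fell to 221, 219 and 267 CPM in Toxf/fPdcd1Cre replicates 1, 2 and 3, against 388 CPM in the shared Toxf/f library and 376 CPM in Toxf/f replicate 3. The genotypes were well apart, with a log2 fold change of -0.70 ± 0.138 (SE; edgeR, adjusted p = 0.0288). The call was lost in 3 of the 5 fits that left out a library, where adjusted p was 0.0677 without Toxf/fPdcd1Cre replicate 2, 0.264 without the shared Toxf/f library and 0.294 without Toxf/f replicate 3. Tcf7, its close relative, had -0.04, and the chromatin organiser Satb1 had 0.07, with adjusted p = 0.978 for Tcf7 and 0.962 for Satb1. At an unadjusted p under 0.05 (edgeR), 3 of the 21 were higher, where 3.08% of all tested genes were. These were Ikzf3 at 0.34, Tcf3 at 0.33 and Tcf12 at 0.32 (adjusted p = 0.356, 0.408 and 0.474 in that order). Another 3 were lower, Lef1 and, uncalled, Id2 at -0.64 and Foxo1 at -0.43 (adjusted p = 0.0671 and 0.205 in that order). Over the 21 regulators the median was 0.07, and it lay between -0.04 and 0.12 when a library was left out, with 3 of 5 such fits below 0. Satb1 lay between -0.04 and 0.18 and Tcf7 between -0.17 and 0.12 in those fits.

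**Figure D4:**
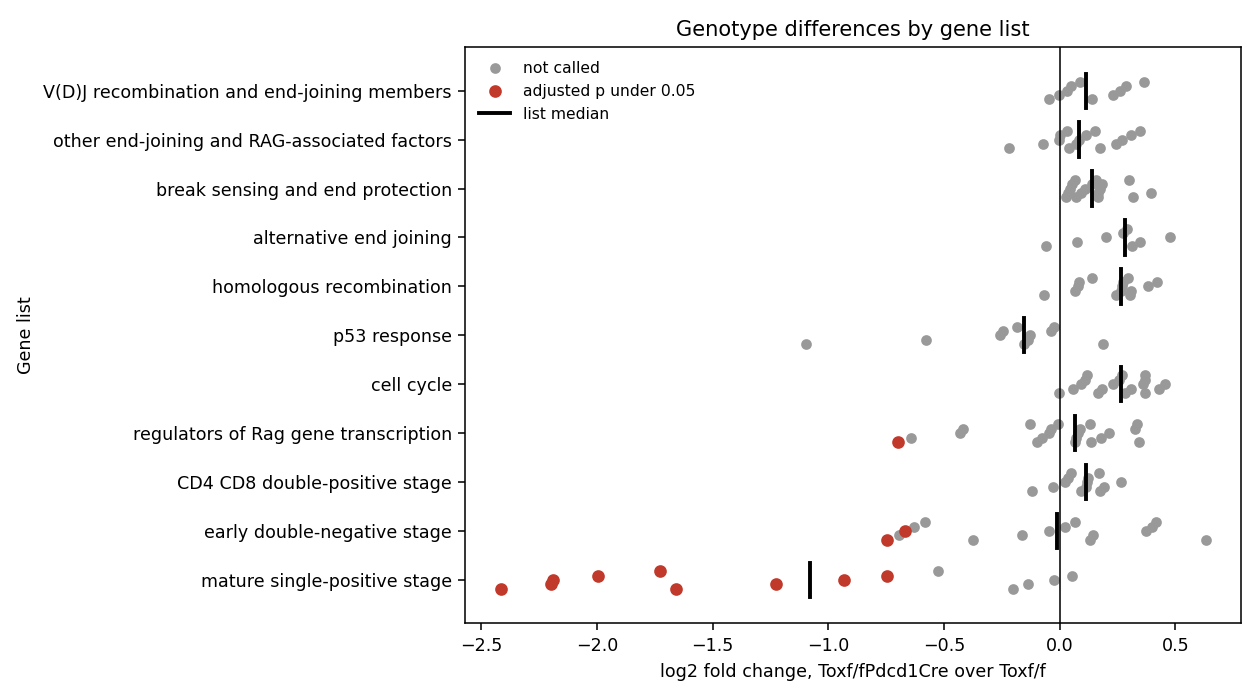
Log2 fold change, Toxf/fPdcd1Cre minus Toxf/f, of every tested gene of the member list and of the repair, cell cycle, regulator and stage lists, with the list median as a line and called genes in red. The members lie between -0.05 and 0.36, whereas the mature single-positive list has a median of -1.08.

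Markers of thymic stages and of other cells were read beside the members, since RAG and Dntt levels depend on stage. Of 13 double-positive stage markers 0 passed, with a median log2 fold change of 0.12, Cd8a at 0.17 and Ccr9 at -0.12 (edgeR, adjusted p = 0.846 and 0.897 in that order). The signs of the median and of Cd8a turned on the Toxf/f libraries. Without Toxf/f replicate 3 the median was -0.02 and Cd8a had -0.02, and without the shared library the median was 0.19 and Cd8a had 0.39. Ccr9 stayed below 0 in both fits, at -0.13 and -0.11 in that order. The summed CPM of the double-positive markers was 6614, 8161 and 8150 in Toxf/fPdcd1Cre replicates 1, 2 and 3, against 7795 in the shared Toxf/f library and 6759 in Toxf/f replicate 3. Toxf/fPdcd1Cre replicates 2 and 3 were highest here, as for Rag1 and Dntt, and replicate 1 was the lowest. Of 16 early double-negative markers 2 passed, both lower in Toxf/fPdcd1Cre: Cd44 by a log2 value of -0.67 and Il7r by -0.75 (adjusted p = 0.0437 and 0.0496 in that order). The other markers did not share one direction: over the list 8 were above 0 and 8 below, with a median of -0.01 that lay between -0.39 and 0.13 when a library was left out. Notch3, Ptcra and Notch1, genes of Notch and pre-T cell receptor signalling, had 0.63, 0.42 and 0.40 (adjusted p = 0.321, 0.342 and 0.508 in that order). In the same list Hes1 had 0.02, Dtx1 -0.16, Kit -0.63 and Mef2c -0.70 (edgeR, adjusted p = 0.991, 0.904, 0.479 and 0.496 in that order). Notch3 had 48.5 CPM in the shared Toxf/f library and 94.3 CPM in Toxf/f replicate 3, near the 97.1 CPM of Toxf/fPdcd1Cre replicate 3. Notch1 had 189 and 311 CPM in those Toxf/f libraries, the latter inside the Toxf/fPdcd1Cre range. The calls of Cd44 and Il7r were lost without either Toxf/f library and without Toxf/fPdcd1Cre replicate 2 or 3. Kit and Il2ra, which together mark the DN2 stage, averaged 13.7 ± 5.52 and 115 ± 17.5 CPM in Toxf/fPdcd1Cre, against 21.1 ± 5.94 and 105 ± 26.1 CPM in Toxf/f (SD, n = 3 and 2). The part of stage in the members' values was not tested.

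The mature single-positive list, which holds genes of cells that have ended recombination, moved with the genotype: 9 of 14 tested genes fell and 0 rose, with a median log2 fold change of -1.08. Il7r, which is expressed at both stages, is 1 of these 9 and also 1 of the 2 early double-negative calls. Ccr7, a chemokine receptor, fell by 2.19, Samhd1 by 1.66 and Klf2 by 1.23 on the log2 scale (edgeR, adjusted p = 0.000508, 0.00243 and 0.00301 in that order). Gimap3 fell to 13.8 ± 3.10 CPM in Toxf/fPdcd1Cre, against 55.1 ± 5.44 CPM in Toxf/f (SD, n = 3 and 2; edgeR, adjusted p = 0.000353). Their summed CPM was 972, 1014 and 910 in Toxf/fPdcd1Cre replicates 1, 2 and 3, against 1410 in the shared Toxf/f library and 1504 in Toxf/f replicate 3. Without the shared Toxf/f library 3 of the 14 were called, and without Toxf/f replicate 3 it was 2. Klf2 lost its call without Toxf/f replicate 3 and Samhd1 without either Toxf/f library. The part of these cells in the members' values was not tested.

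B lineage cells also recombine, so their markers were read too. Of 12 tested markers, whose median was -0.42 and, without Toxf/f replicate 3, 0.11, 1 passed: Igll1, a part of the surrogate light chain, rose to 2.24 ± 0.271 CPM in Toxf/fPdcd1Cre, against 0.343 ± 0.0587 CPM in Toxf/f (SD, n = 3 and 2; edgeR, adjusted p = 0.0314). The summed level of the list was 78.0, 77.1 and 65.2 CPM in Toxf/fPdcd1Cre replicates 1, 2 and 3, against 76.6 CPM in the shared Toxf/f library and 112 CPM in Toxf/f replicate 3. The genotypes overlapped, and the part of B lineage cells in the members' values was not tested. Of 12 thymic epithelium markers 1 was called, Krt14, lower with a log2 value of -1.29 (adjusted p = 0.0275). Over that list 7 were above 0 and 5 below, with a median of 0.11. Aire had -1.47, Epcam -0.43 and Krt5 -0.41 without a call (edgeR, adjusted p = 0.158, 0.510 and 0.582 in that order). Of 12 markers of dendritic cells and macrophages 1 fell, Flt3 with -1.05 (adjusted p = 0.0277). The dendritic cell and macrophage list had 10 of 12 fold changes below 0, a median of -0.43 and 6 genes lower at an unadjusted p under 0.05. In that list 3 genes were called lower without Toxf/fPdcd1Cre replicate 1, 2 without its replicate 2 and 0 without its replicate 3 or either Toxf/f library. Its summed CPM was 494, 606 and 557 in Toxf/fPdcd1Cre replicates 1, 2 and 3, against 880 in the shared Toxf/f library and 804 in Toxf/f replicate 3, and its part in the members' values was not tested. The calls of Igll1, Krt14 and Flt3 were lost when either Toxf/f library or Toxf/fPdcd1Cre replicate 3 was left out, and that of Igll1 also without Toxf/fPdcd1Cre replicate 2. Of 4 erythroid genes 0 passed, with a median of -0.60, and 3 were called lower without Toxf/fPdcd1Cre replicate 2. The most abundant markers of these lists had log2 values of -0.88 for Cd79a and 0.07 for Cd79b of B cells, 0.15 for Ccl25 and 0.24 for Prss16 of epithelium, -0.26 for C1qb and -1.12 for Lyz2 of myeloid cells, and -0.78 for Hba-a1 and -0.71 for Hbb-bs of red cells. None of these passed, the lowest adjusted p being 0.0539 for Lyz2 (edgeR).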

How the data were processed

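RNA of the sorted thymocytes was isolated with Trizol and libraries were prepared with a NEBNext Ultra kit, per the labels' protocols. The authors deposited 1 table per sample, 6 in all, listing 22298 genes, each with an estimated count and its FPKM value, per the file headers. The deposited estimated counts were not whole for 8.81% to 9.84% of genes. StringTie 1.3.1, HISAT2 and fastp 0.18.0 are named, per the submitters' processing notes. Not given in the sources used here are each tool's step, the build, the annotation and any strand setting.

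The file labelled Toxf/f replicate 1 was identical to that of replicate 2 and names replicate 2 in its header. The design had assumed 3 samples against 3; 5 distinct libraries were tested, 3 against 2. Estimated counts were rounded, filtered with filterByExpr, normalised with TMM factors (trimmed mean of M-values), and the quasi-likelihood test of edgeR 4.0.16 was run under R 4.3.3, with Benjamini-Hochberg adjustment over all 14121 tested genes and a threshold of 0.05. Standard errors and 95% intervals were derived from the fold change and its F statistic. Tests were checked on simulated counts.

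Members, lists and tests were chosen with earlier results of these data known. Named were all 10 members, Tox and, from each other list, up to 4 called genes with the smallest p or, where fewer than 2 were called, also the 2 with the highest level. Cd4, Il2ra and Kit were added for the check of the label, Suv39h2, Desi1, Tmem167 and B230118H07Rik as overlapping genes and Ddx3y for a library that stands apart. Added for their size or direction were Prr5l, Pmaip1, Cdkn1a, Notch1, Notch3, Ptcra, Hes1, Dtx1, Mef2c, Id2, Foxo1, Ikzf3, Tcf3, Tcf12, Aire, Krt5, Epcam, Trp53 and Mdm2. All these were added after their values were seen. Coordinates come from GENCODE M21 on GRCm38 by Ensembl identifier and the authors' build may be another. Alternatives were other scalings and filters, DESeq2 1.42.0, limma 3.58.1 on counts (voom) and on log2(FPKM + 1) or log2(FPKM + 0.1), an age covariate, a block for replicate number and leaving out each library. Figures were drawn with matplotlib 3.10.9.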

Additional observations from a re-analysis of the deposited data

How the results depend on the processing

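With 3 and 2 libraries, modest differences of single members could not be resolved, and leaving out 1 Toxf/f library leaves a lone library that is assumed to vary like the other genotype. Under 17 alternatives no member passed the threshold, and the lowest adjusted p was 0.0726, for Xrcc6. Of 169 member values, 148 kept their direction. Rag1 (0.16 to 0.34), Dntt (0.12 to 0.43), Xrcc5 (0.13 to 0.36) and Xrcc6 (0.18 to 0.58) stayed above 0 in all 17. With a library left out, the 95% interval of Nhej1 reached -1.11 and 1.12 and that of Xrcc6 1.03, so these could then include a 2-fold difference. Tox kept its direction and its call in every alternative.

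The other 21 values changed sign around small main values. Xrcc4 had -0.000352 with upper-quartile factors, -0.0273 when only genes reaching 10 CPM in 3 libraries were tested, -0.0694 with limma on log2(FPKM + 1), with or without the FPKM filter, and -0.0728 on log2(FPKM + 0.1). Under these last settings Prkdc had -0.0134 with the 10 CPM filter, -0.0102 on log2(FPKM + 1), with or without the FPKM filter, and -0.0119 on log2(FPKM + 0.1). Dclre1c had 0.00803 without a low-count filter. Leaving out Toxf/f replicate 3 or 1 Toxf/fPdcd1Cre replicate gave -0.0233 to 0.202 for Rag2, -0.0861 to 0.275 for Lig4, -0.0808 to 0.0899 for Xrcc4, -0.0483 to 0.122 for Prkdc and -0.0794 to 0.0511 for Dclre1c, and without the shared library Prkdc had -0.0166, Dclre1c 0.0403 and Nhej1 0.228. Nhej1 did not pass the 10 CPM filter and has no value there. The cause of these changes was not tested.

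Across all genes 232 were called. The count was 359 with DESeq2, 417 without a low-count filter, 67 with the 10 CPM filter, 113 with limma on log2(FPKM + 1), 101 on log2(FPKM + 0.1), 44 without the FPKM filter, 125 with age as a covariate and 31 to 606 with a library left out. The lowest, 31, was without Toxf/f replicate 3, and 49 were called without the shared library, 606 without Toxf/fPdcd1Cre replicate 1 and 114 without its replicate 3. The cause was not tested. Deviations from the genotype means correlated at -0.174, 0.0878 and -0.146 between samples of replicate numbers 1, 2 and 3. With 2 Toxf/f libraries these deviations mirror each other, and the shared library serves for replicates 1 and 2. The values therefore cannot decide whether samples of the same replicate number deviate together. With the replicate block, 435 genes were called when the shared Toxf/f library was numbered 1, where Dclre1c had 0.0521, and 868 when it was numbered 2; no member was called in either fit.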
